A study of Aspergillus nidulans with 6 samples.

Results

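The orsellinic acid gene cluster of *Aspergillus nidulans* was examined through 5 genes, *orsA* (AN7909), *orsB* (AN7911), *orsC* (AN7912), *orsD* (AN7913) and *orsE* (AN7914), which were taken by their identifiers from the 10957 genes listed. A fungal secondary metabolite cluster is a run of neighbouring genes that together make and modify 1 compound, and such clusters are often silent in ordinary laboratory culture. This one is built around *orsA*, a non-reducing polyketide synthase that joins acetate and malonate units into orsellinic acid, from which the fungus also makes diaryl ethers. It is known as a cluster that stays quiet in pure culture and is switched on by contact with a soil streptomycete. The products of *orsB*, *orsC* and *orsE* resemble an amidohydrolase, a tyrosinase and an alcohol dehydrogenase. The 8 *dba* genes (AN7896 to AN7903), which belong to a second polyketide cluster, lie close by on the same chromosome, with 5 genes (AN7904 to AN7908) between the 2 clusters.

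RNA was measured in 3 strains. The parent TN02A7 carries *pyrG89*, *riboB2*, *pyroA4*, *veA1* and *nkuA::argB2*, the last of which disables nonhomologous end joining. WSA08 (Δ*cnaB*) lacks the regulatory subunit of calcineurin, a calcium-activated phosphatase, with *pyrG* in its place, and LXA05 (Δ*cnaB*Δ*cchA*, the double mutant) also lacks the calcium channel gene *cchA*, again replaced by *pyrG*. Conidia were grown for 18 h at 37°C in minimal medium with uridine and uracil and then kept for a further 30 min, either in 800 mM NaCl or without added salt, with 1 library for each of the 6 conditions. The alleles *pyrG89*, *nkuA::argB2* and *veA1* were present in every strain, the last a mutant form of the velvet gene, a regulator of secondary metabolism. The deletion strains carry the *pyrG* marker and the parent does not, and the genotype of LXA05 does not list *riboB2* or *pyroA4*, so a difference between the strains cannot be told apart from an effect of these markers. Each genotype is represented by a single strain.

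Levels are given as the deposited TMM-normalized RPM, that is, gene reads per 1000000 that were scaled by the trimmed mean of M values within the 2 libraries of a strain. In each library the values above 0 are whole multiples of 1 step (within 0.05 of a step), and they add up to 41369564 to 50006318 steps per library. This is more than the raw reads of the study, so a step is not known to be 1 read. Anything under 1 RPM appears as 0, and the lowest value above 0 corresponds to 38 to 55 steps, depending on the library. For *cnaB* (AN6566) the parent libraries had 86.2 RPM (no salt) and 73.6 RPM (salt), while the 4 deletion libraries all had 0. The *cchA* gene (AN1168) had 3.56 and 3.96 RPM in the double mutant against at least 74.1 in the other strains. Intervals in parentheses are 95% exact intervals that take 50% of the steps as independent reads, an assumption, and cover counting error only. Because the authors scaled each strain on its own, tests between strains used a common scale of the 6 libraries. On that scale the values of the parent were multiplied by 0.877 and 0.861 and those of the deletion strains by 1.06 to 1.09. Gene lengths of the authors' assembly were not used, so levels are compared between libraries and not between genes.

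The *orsE* gene, the alcohol dehydrogenase-like member, was the member whose strains lay furthest apart among those with a value in every library. It had 3.05 RPM (2.35 to 3.84) in the parent without salt and 2.73 (2.11 to 3.53) with salt. In Δ*cnaB* it had 13.9 RPM (12.4 to 15.5) without salt and 18.7 (16.8 to 20.7) with salt. In the double mutant it had 14.0 RPM (12.6 to 15.5) and 15.8 (14.1 to 17.6). The 4 libraries of the deletion strains were all above the 2 parent libraries and did not overlap with them. On the common scale all deletion libraries were above the parent libraries for 11.4% of the 8673 genes tested. In RNA from whole cultures, more hyphae that express a gene and more of its RNA per hypha cannot be told apart. In the order of the levels, Δ*cnaB* with salt came first and the double mutant with salt second, followed by the deletion strains without salt. Neighbours in this order had overlapping intervals, except across the gap between the deletion strains and the parent.

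The *orsD* gene had 17.2 RPM (15.5 to 19.0) in the parent without salt and 13.4 (11.9 to 15.0) with salt. It had 28.3 RPM (26.1 to 30.5) without salt and 32.7 (30.2 to 35.4) with salt in Δ*cnaB*, and 26.6 (24.7 to 28.7) and 17.4 (15.6 to 19.3) in the double mutant. Both Δ*cnaB* libraries and the double mutant without salt lay above the parent, while the double mutant with salt overlapped with the parent without salt in the deposited values. On the common scale these last libraries had 19.0 and 15.1 RPM.

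The tyrosinase-like *orsC* and the polyketide synthase gene *orsA* were listed at 0 in both parent libraries. In Δ*cnaB*, *orsC* had 4.87 RPM (4.01 to 5.86) without salt and 1.32 (0.856 to 1.95) with salt, and in the double mutant it had 4.33 (3.60 to 5.21) and 1.39 (0.921 to 2.00). It was thus above the limit of listing in all 4 deletion libraries and highest without salt. The level of *orsA* was 2.04 RPM (1.50 to 2.72) without salt and 4.71 (3.78 to 5.79) with salt in Δ*cnaB*. In the double mutant, *orsA* was listed at 0 without salt and had 2.60 RPM (1.92 to 3.38) with salt. It was highest with salt, the opposite of *orsC*. The amidohydrolase-like *orsB* was above 0 in 1 library, Δ*cnaB* without salt, at 1.06 RPM (0.668 to 1.55), which is next to the limit of listing. No library had more than 4.87 RPM for any of these 3 genes.

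**Figure D1:**
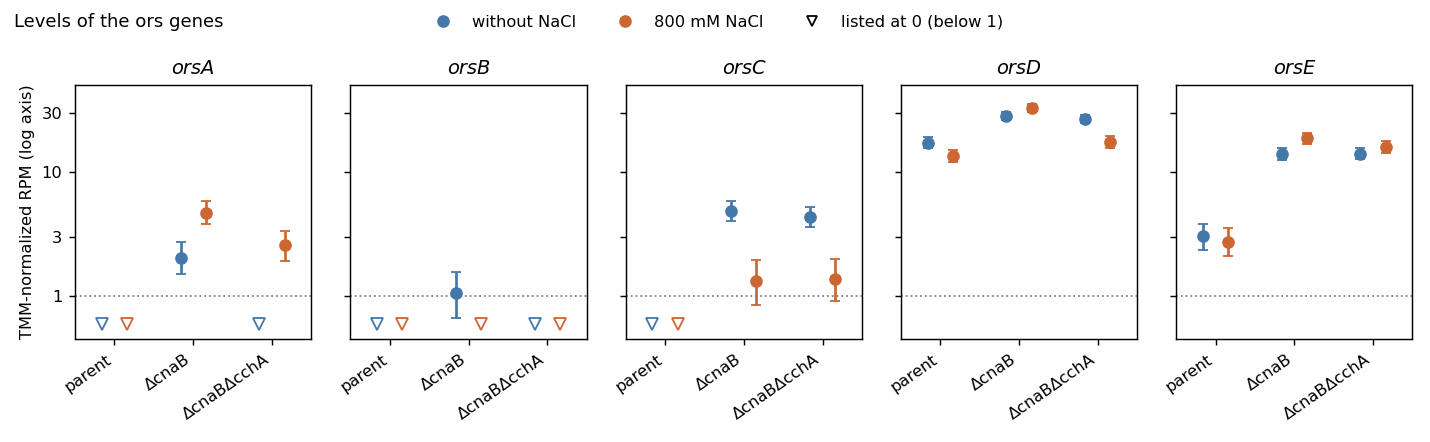
Levels of the 5 ors genes in the 6 libraries, as deposited TMM-normalized RPM on a log axis, with strains on the x axis. Points are single libraries, bars are 95% exact intervals of counting error, the dotted line is the listing limit of 1, and open triangles mark libraries listed at 0. For orsE the parent libraries have 3.05 and 2.73 RPM and the deletion strains 13.9 to 18.7, and orsA, orsB and orsC are listed at 0 in the parent.

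Whether the cluster differed between strains was tested with limma on log2(RPM + 1) on the common scale, as the mean of both deletion strains minus the parent with treatment in the model (4 libraries against 2, two-sided, Benjamini-Hochberg adjusted over 8673 genes). The control and salt libraries of a strain are not replicates of its genotype. The *P* values reflect how far the salt response varied between strains, and not the variation between independent strains of a genotype. A gene entered the test with a value of at least 1 in 3 or more libraries, which 4 of the 5 *ors* genes had. *orsB* did not. Of all genes tested, 10.7% were higher in the deletion strains and 3.45% were lower. *orsE* was higher in the deletion strains by 2.33 ± 0.20 (SE) on the log2 scale (adjusted *P* = 0.0053), and *orsD* by 1.01 ± 0.21 (adjusted *P* = 0.042). In both, each of the 4 deletion libraries was above each parent library on the common scale, which held for 11.4% of all genes tested. *orsD* and *orsE* are the 2 members with a value in all 6 libraries, and 10.3% of the genes with such values were higher.

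For *orsC* and *orsA* the test gives no support, because they entered it only through the deletion libraries. *orsC* was higher by 1.93 ± 0.36 on the log2 scale (limma, adjusted *P* = 0.033), and *orsA* by 1.55 ± 0.44 (adjusted *P* = 0.077), which did not pass. Both parent values are listed as 0, so the added 1 sets the size of these differences. A value of 0 in both parent libraries and above 0 in a deletion library was found for 3.62% of the 9086 genes with any value, and *orsA*, *orsB* and *orsC* were among them.

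The call for *orsE* held under all 13 alternatives (adjusted *P* between 0.0022 and 0.013), and those for *orsC* and *orsD* did not. The adjusted *P* of *orsD* was 0.060 with the values as deposited, and it ranged from 0.042 to 0.13 over 13 alternatives. It was 0.13 without the control library of the double mutant, 0.061 without its salt library and 0.096 without the salt library of Δ*cnaB*. For *orsC* the range was 0.0049 to 0.094, and the call was lost without the control library of Δ*cnaB* (0.060) or of the double mutant (0.075) and with the values listed as 0 set to 1 (0.094), where the difference was 1.42. *orsA* passed without the parent control library (0.025) or without the double mutant control library (0.048), and its range was 0.025 to 0.17. With the values as deposited the median difference of all genes moved from 0.03 to -0.25, and the 926 higher and 299 lower genes became 672 and 1628. Relative to this median, *orsE* was higher by 2.30 on the common scale and by 2.33 as deposited, and *orsD* by 0.98 and 0.97.

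The *dba* genes showed the same direction at another size. All 8 were higher in the deletion strains, by 5.38 to 8.65 on the log2 scale (limma, median 8.14, adjusted *P* at most 0.010). Over all genes tested the median was 0.03, and 10.7% were higher. AN7898, AN7900 and AN7901 were listed at 0 in both parent libraries and AN7902 and AN7903 in the parent control, so the size of their differences and the median depend on the added 1. AN7898, AN7900 and AN7901 entered the test only through the deletion libraries, so for them it gives no support, as for *orsA* and *orsC*. AN7902 and AN7903 had 1.64 and 1.02 RPM in the parent with salt, near the limit of listing. They too passed the filter through the deletion libraries, so the test gives no support for them either. AN7896, AN7897 and AN7899 had a value in all 6 libraries, with differences of 5.38, 8.59 and 8.16. Over the alternatives, among them leaving out 1 parent library, the difference of AN7902 ranged from 6.48 to 10.52 and that of AN7903 from 5.98 to 10.24. The *ors* genes with a value in every library had differences of 1.01 and 2.33. AN7896 had the smallest of the 8 fitted differences, with 3.21 and 1.91 RPM in the parent without and with salt and between 81.9 and 196 in the deletion strains. The size of the difference was not compared between genes by a test. AN7897 had 2.14 and 2.24 RPM in the parent and 422 to 2617 in the deletion strains, so that its ratio to the parent on the common scale was between 233 and 1477. For *orsE* the same 4 ratios were 5.49 (4.25 to 7.31) for Δ*cnaB* and 5.63 (4.36 to 7.44) for the double mutant without salt, and 8.48 (6.41 to 11.2) and 7.30 (5.50 to 9.66) with salt. For *orsD* they were 1.98 and 3.03 in Δ*cnaB* and 1.90 and 1.65 in the double mutant, each without and with salt. The ratios at 1 treatment share a parent library. *orsD* and *orsE* thus had the direction of the *dba* genes, and the call of *orsD* was lost in 6 of 13 alternatives. For *orsA*, *orsB* and *orsC* this was not shown by the test.

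The genes between the clusters did not form a continuous high stretch. On the side of the *dba* genes, AN7893, AN7894 and AN7895 were higher by 8.17 to 9.07 on the log2 scale (limma, adjusted *P* at most 0.0016), like the *dba* genes themselves. AN11584, between AN7897 and AN7898, was higher by 8.86 ± 0.41 (adjusted *P* = 0.0011), and AN11583, between AN7895 and AN7896, was not analysed here. By contrast, AN7892, the gene before them, was not called (0.48 ± 0.16, adjusted *P* = 0.11). AN7904, the first gene after AN7903, had parent levels of 7.33 and 7.06 RPM without and with salt, against 17.1 and 25.7 for Δ*cnaB* and 15.7 and 22.4 for the double mutant, and it was higher in the deletion strains by 1.62 ± 0.21 (adjusted *P* = 0.013). The next 4 genes, AN7905 to AN7908, were at or near the limit of listing in every library, with no value above 2.49 RPM. Beyond *orsE*, AN7915 was higher by 0.92 ± 0.19 (adjusted *P* = 0.040), with 7.04 and 5.04 RPM in the parent and between 6.35 and 15.9 in the deletion strains. AN7917 and AN7918 were not called (adjusted *P* = 0.19 and 0.60), and AN7916 and AN7919 were listed at 0 in all 6 libraries.

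**Figure D2:**
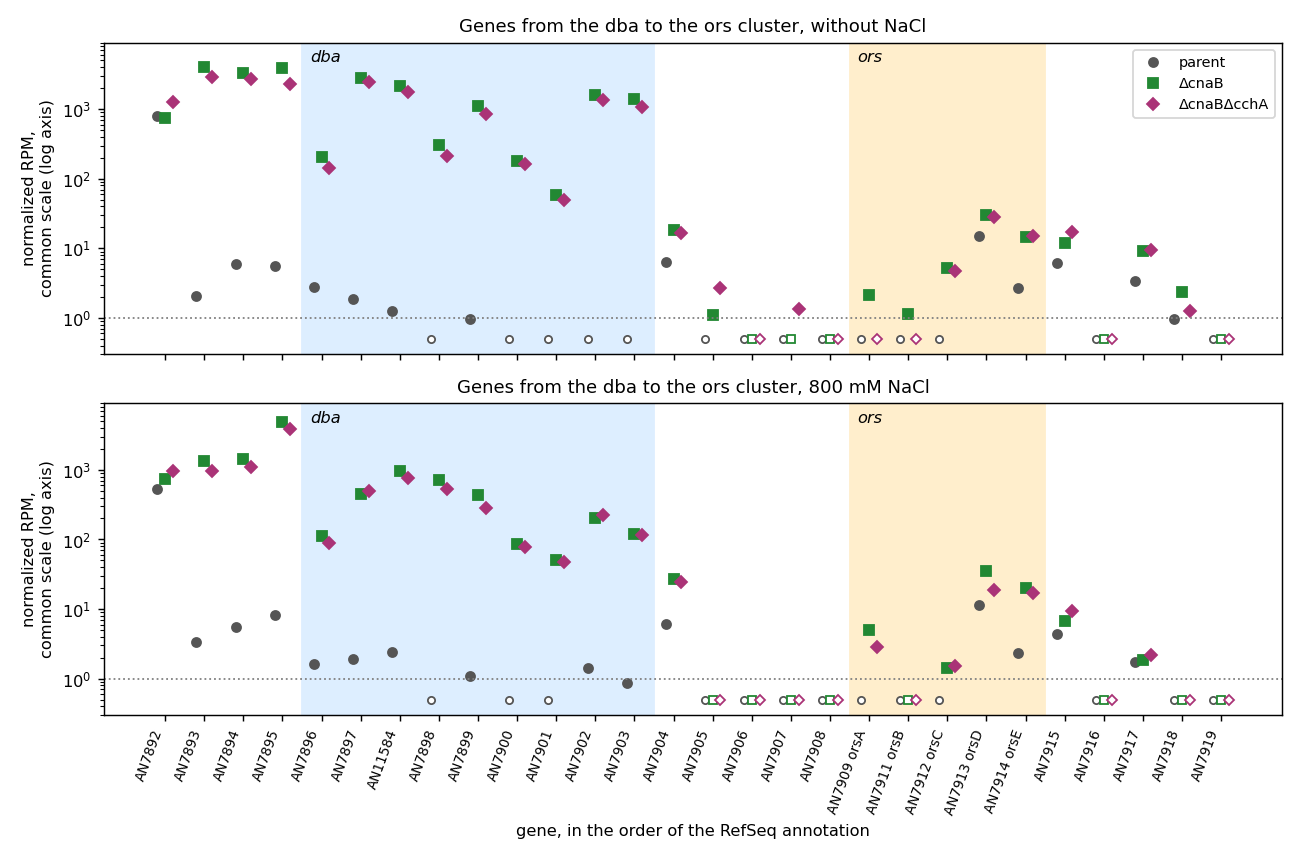
Levels of the genes from AN7892 to AN7919 in the 3 strains, without NaCl (top) and with 800 mM NaCl (bottom), as normalized RPM on the common scale (log axis). Genes are in the order of the RefSeq annotation and not to distance, shading marks the dba and ors genes, and open symbols at the bottom are libraries listed at 0. The deletion strains range from 46.7 to 2772 RPM in the dba genes and reach at most 34.9 in the ors genes.

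**Figure D3:**
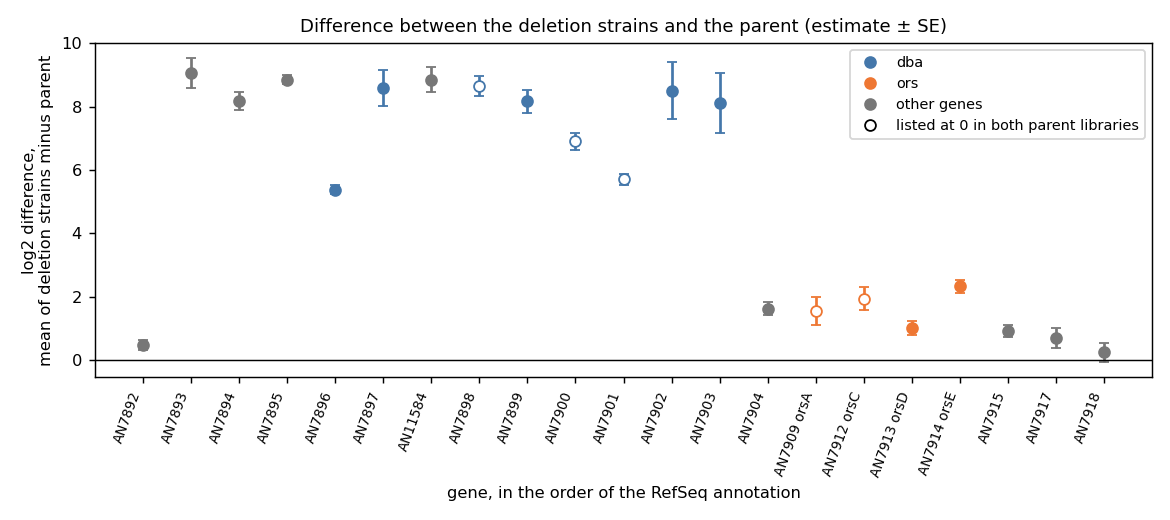
Difference between the mean of both deletion strains and the parent for the genes of the region that entered the test, as the limma estimate on the log2(RPM + 1) scale with its SE. Open circles are genes listed at 0 in both parent libraries, whose size depends on the added 1, as does that of AN7902 and AN7903. orsD and orsE lie at 1.01 and 2.33 and the dba genes between 5.38 and 8.65, and orsA (1.55) was not called.

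Salt was examined next, with the 3 strains as the replicates of the treatment (salt minus control, strain in the model, the same limma fit). Of all genes tested, 29.4% were higher with salt and 27.6% lower, and none of the 4 *ors* genes tested was called. At an unadjusted *P* under 0.05 the number was also 0, beside 5457 of the 8673 genes tested. The differences were 0.96 ± 0.42 for *orsA* (adjusted *P* = 0.10), -0.84 ± 0.34 for *orsC* (0.088), -0.24 ± 0.20 for *orsD* (0.35) and 0.15 ± 0.19 for *orsE* (0.52). The parent contributes no difference to *orsA* and *orsC*, since both of its values are listed as 0. Without the parent, in the 2 deletion strains alone, *orsA* rose with salt by 1.43 (limma, adjusted *P* = 0.019) and *orsC* fell by 1.26 (adjusted *P* = 0.0084), beside 33.0% of all genes that were higher and 32.4% that were lower in that fit. It is 1 of 8 alternatives to the test over 3 strains, the other 7 of which called neither gene (adjusted *P* up to 0.36 for *orsA* and 0.42 for *orsC*), and no alternative was run on it. The direction of the 2 genes was the same in both deletion strains. For *orsC*, the ratio of control to salt was 3.68 (2.37 to 5.93) in Δ*cnaB* and 3.12 (2.06 to 4.92) in the double mutant. For *orsA*, the ratio of salt to control was 2.31 (1.60 to 3.36) in Δ*cnaB*, and in the double mutant the control was listed at 0.

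Within a strain, a change of more than 1 on the log2(RPM + 1) scale was counted without a test, since each side is 1 library. By this limit, *orsB* and *orsC* were lower with salt in Δ*cnaB* (-1.05 and -1.34), and in the double mutant *orsA* was higher (1.85) and *orsC* lower (-1.16). The parent had no such change. Across genes with a value in the strain, 20.7% were higher and 17.2% lower past this limit in Δ*cnaB*, 20.0% and 17.2% in the double mutant, and 21.7% and 17.8% in the parent. The changes of *orsB* in Δ*cnaB* and of *orsA* in the double mutant run to or from a value listed as 0 and depend on the added 1. In the order parent, Δ*cnaB*, double mutant, the changes of *orsD* were -0.34, 0.20 and -0.59 and those of *orsE* -0.12, 0.40 and 0.16, all below the limit. The direction of *orsD* and *orsE* differed between strains.

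The *dba* genes did not move together with salt either. Of the 8, AN7896 and AN7897 were lower with salt over the 3 strains (limma, -0.69, adjusted *P* = 0.011 and -1.64, adjusted *P* = 0.047) and none was higher, beside the 27.6% of all genes that were lower. Neither call held without Δ*cnaB* (adjusted *P* = 0.12 and 0.094) or without the double mutant (0.078 and 0.11), and that of AN7897 did not hold with a pseudocount of 0.1 (0.065). In Δ*cnaB*, AN7902 went from 1489 to 193 RPM and AN7903 from 1298 to 113, while AN7898 went from 288 to 680. In the double mutant, the same genes went from 1274 to 205, from 986 to 106 and from 200 to 489 RPM. Both clusters thus had members that were lower and members that were higher with salt in the deletion strains. There, *orsC* had the direction of AN7902 and AN7903, and *orsA* had that of AN7898.

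**Figure D4:**
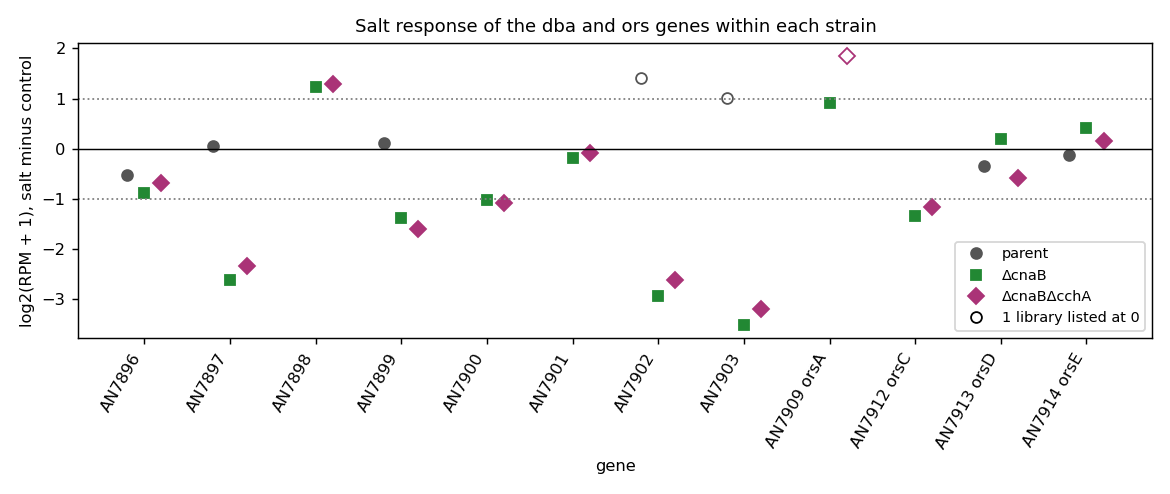
Salt response of the dba and ors genes within each strain, as the difference of log2(RPM + 1) between the salt and the control library, with the deposited values and without a test. The gene orsB, which did not enter the limma tests, is not drawn. Open symbols have 1 of the 2 libraries listed at 0, strains with both at 0 are left out, and dotted lines mark a change of 1. In the deletion strains orsC lies below -1 and orsA above 0, and the dba genes of these strains range from -3.51 to 1.28.

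The added loss of *cchA* was examined by comparing the double mutant with Δ*cnaB* (2 libraries each, treatment in the model). No *ors* gene was called by limma, and none had an unadjusted *P* under 0.05. Across all 8673 genes, 0.0115% were lower, which is the deleted *cchA* alone, and 0% were higher, with 365 genes at an unadjusted *P* under 0.05. The differences were -1.16 ± 0.51 for *orsA*, -0.03 ± 0.42 for *orsC*, -0.45 ± 0.25 for *orsD* and -0.09 ± 0.23 for *orsE* (adjusted *P* at least 0.996 for each). The largest difference in single libraries with a value on both sides was in the salt libraries, where *orsD* was 1.84 times (1.61 to 2.10) and *orsA* 1.78 times (1.26 to 2.57) higher in Δ*cnaB* than in the double mutant on the common scale. Without salt, *orsD*, *orsE* and *orsC* had ratios of the double mutant to Δ*cnaB* of 0.956 (0.860 to 1.07), 1.02 (0.878 to 1.19) and 0.903 (0.694 to 1.18).

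Whether salt acted differently in the parent and in the deletion strains was tested as an interaction. No *ors* gene was called by limma, and 0% of the 8673 genes were called in either direction, while 1652 genes had an unadjusted *P* under 0.05. The estimates were 0.19 ± 0.53 for *orsD* (adjusted *P* = 0.88) and 0.43 ± 0.29 for *orsE* (adjusted *P* = 0.47). For *orsA* and *orsC* the parent is listed at 0 in both libraries, so its change is fixed at 0 and the estimates of 1.43 and -1.26 are those of the deletion strains alone. They test no difference from the parent, although *orsC* had an unadjusted *P* under 0.05 (adjusted *P* = 0.17). Of the 8 *dba* genes, 6 had an unadjusted *P* under 0.05 and none passed the adjustment, and for AN7898 and AN7900 among the 6 the parent change is likewise fixed at 0. The parent contributes 1 pair of libraries to this comparison. In simulated data this test recovered 2 of 50 genes changed by 1 on the log2 scale, so a difference of that size would mostly go uncalled. It recovered 50 of 50 changed by 4, whereas AN7902 (-4.04) and AN7903 (-4.26) were not called here. The simulated noise was equal for all genes, so its recovery is not that of these data.

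The members did not share a single profile over the 6 libraries. The correlation of gene-centred log2 values was 0.87 between *orsD* and *orsE*, 0.81 between *orsC* and each of these, 0.74 between *orsA* and *orsE*, and 0.34 between *orsA* and *orsC*. These values describe 6 libraries that share strains and treatments. With the mean profile of the 8 *dba* genes, the correlation was 0.96 for *orsE*, 0.93 for *orsC*, 0.88 for *orsD*, 0.60 for *orsA* and 0.42 for *orsB*, whose single value decides it. That profile is mostly the strain difference, so other genes higher in the deletion strains (10.7% of those tested) can correlate with it too. The share of all genes with such correlations was not counted, and both parent values of *orsC* are listed as 0. The mean profile of the *ors* genes was highest in Δ*cnaB* without salt (0.79 above the mean of the 6 libraries on the log2 scale), then in Δ*cnaB* with salt (0.61), the double mutant with salt (0.28) and without it (0.21), and lowest in the parent (-0.89 without and -0.99 with salt).

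Outside the region, the genes most like this mean profile over the 6 libraries, among 6262 genes with a range of at least 1 on the log2 scale, were AN10901, AN5396, AN2116, AN8462 and AN4906, with Pearson correlations between 0.992 and 0.999. AN3983, AN3491, AN0005, AN0493 and AN6761 followed, with at least 0.988. The RefSeq table gives no symbol for any of these. AN10901 was lowest in the parent (286 and 270 RPM without and with salt), highest in Δ*cnaB* (894 and 752) and in between in the double mutant (533 and 588). Among the *dba* genes, AN7896 came nearest, as number 27 in this order, and *orsE* itself was number 76. AN5396, AN2116, AN3983, AN3491, AN0005 and AN6761 were listed at 0 in both parent libraries, like *orsA* and *orsC*.

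Other backbone enzymes and known regulators were looked at as lists. Of 24 genes for polyketide synthases, nonribosomal peptide synthetases and related backbone enzymes, AN7903 among them and *orsA* not, 16 entered the test. In the deletion strains, 3 were higher (AN2547, AN7903 and AN8412) and 1 was lower (*sidD*), beside the 10.7% and 3.45% of all genes given above, with a median of 0.58 against 0.03 over all genes. AN7903, a *dba* gene, was at or near the limit of listing in the parent and passed the filter through the deletion libraries, so its call gives no support. AN7884, a backbone gene that precedes the *dba* genes in the RefSeq order, had parent levels of 11.8 and 8.12 RPM without and with salt, against 181 and 18.6 for Δ*cnaB* and 118 and 8.61 for the double mutant. Its difference of 2.34 ± 0.66 did not pass (limma, adjusted *P* = 0.075). With salt, 3 of the 16 were higher (AN2545, AN2547 and AN3230, by 2.03 to 3.10) and 6 lower (AN1034, AN2032, AN2035, AN7884, AN8412 and *sidD*, at -0.61 to -2.44), beside 29.4% and 27.6% of all genes.

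Of 17 genes for regulators of secondary metabolism and chromatin, all were tested, and none was called between the deletion strains and the parent (limma, from -0.59 for AN1905 to 0.43 for AN8694 on the log2 scale, median -0.06). At an unadjusted *P* under 0.05 there were 5 of the 17, beside 3088 of all 8673 genes tested. With salt, 3 of the 17 were higher and 4 lower, beside 29.4% and 27.6% of all genes. *velB* and *vosA*, which code for velvet proteins, were higher with salt by 0.90 (limma, adjusted *P* = 0.0033) and 1.74 (adjusted *P* = 0.0013). *veA*, of the same family and mutant in every strain, fell by 0.64 (adjusted *P* = 0.0095). Its level went from 255 to 172 RPM in the parent, and the fall was from 164 to 91.3 for Δ*cnaB* and from 165 to 115 for the double mutant. The other members called were *adaB* (0.61), *sumO* (-0.55), *clrD* (-0.99) and AN1905 (-0.80).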

How the data were processed

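Per the study's methods, the authors cleaned the paired-end reads, aligned them with TopHat (version 2.0.12, up to 2 mismatches) to the assembly ASM14920v1 and estimated expression with RSEM. The deposited signal values are TMM-normalized RPM, scaled by the authors within the 2 libraries of each strain, with values under 1 listed as 0. Blank entries (477 to 557 per strain) were treated as 0. The authors' fold changes and p-values in the same tables were not used. Values above 0 are whole multiples of a step (tolerance 0.05). The steps per library (41369564 to 50006318) exceed the raw reads of the study, so intervals (exact Clopper-Pearson, 95%) assume 50% of them to be independent reads.

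For tests between strains, libraries were put on a common scale by TMM over the 6 libraries (30% of M and 5% of A values trimmed). Differences were fitted with limma 3.58.1 (R 4.3.3) on log2(value + 1), with strain and treatment as terms and 2 residual degrees of freedom, for genes of at least 1 in 3 libraries, and called at a Benjamini-Hochberg adjusted P below 0.05. Fewer degrees of freedom were left in the fits without a library or a strain, such as salt in the deletion strains alone. The replicates are the single libraries of related conditions, so P-values assume additive effects of strain and treatment. They do not measure variation between independent strains of a genotype. The fit was tested on simulated data. Of 50 genes changed by 1 on the log2 scale, it recovered 45 for salt, 43 for the deletion and 2 for the interaction. Weakly expressed genes were not among those changed, and the noise was equal for all genes. These counts therefore do not apply to *orsA*, *orsB* or *orsC*. False calls over all sizes of change were 14, 16 and 23. Alternatives were the pseudocount, zeros, filter, scaling, strain terms and left-out libraries.

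The members, gene lists and tests were chosen with earlier results of these data known. Genes were named by rule: the 5 *ors* genes, the *dba* genes, genes between and up to 5 on either side, AN7884, the deleted genes, the 10 genes outside most correlated with the mean *ors* profile, and members of the lists that were called or at the ends of the range. Names and order come from RefSeq (ASM1142v1, 10029 of 10957 identifiers matched), another assembly than that of the authors, so no coordinates are given.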

Additional observations from a re-analysis of the deposited data

How the results depend on the processing

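Of the counts of *ors* genes recomputed under alternatives, 79 stayed within 1.5 times their main value and 4 moved. Most of the 79 were counts of 0 that stayed at 0. A fall from 3 to 2 genes higher in the deletion strains was also taken as within this limit, so the 79 do not show that the calls were stable. Without the parent strain, 1 *ors* gene was higher with salt (*orsA*) and 1 was lower (*orsC*) in place of 0 each. In that fit 33.0% of all genes were higher and 32.4% lower. Without either deletion strain both counts were 0, but only *orsD* and *orsE* entered those fits, and *orsA* and *orsC* did not. With a fold limit of 2 on the log2 scale, 0 *ors* genes passed within Δ*cnaB* and 0 within the double mutant. The share of all genes past this limit was not counted, so these counts are not read as a result about the *ors* genes. The number of *ors* genes higher in the deletion strains, *orsA* and *orsC* included, ranged from 2 to 4, and all 8 *dba* genes were higher under all 13 alternatives. For *orsA*, *orsC*, AN7898, AN7900, AN7901, AN7902 and AN7903 these counts give no support, since they passed the filter through the deletion libraries. In the main fit 10.7% of all genes tested were higher, and the count over all genes moved as given below. No direction of a called value reversed.

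Counts over all genes moved more. The 926 genes higher in the deletion strains became 482 without the control library of the double mutant, 564 without that of Δ*cnaB* and 1976 without the parent salt library. The 299 lower genes became 171 with a pseudocount of 0.1, 457 with deletion as the only strain term, 1628 as deposited, 1563 scaled to library totals, 1481 without the parent salt library and 89 to 130 without single deletion libraries. The 2395 genes lower with salt became 1571 to 1594 without a deletion strain or without the strain term, and scaling to library totals moved the salt split from 2547 and 2395 to 2007 and 3188. With a pseudocount of 0.1, AN7902 was called in the interaction (-6.70, limma, adjusted *P* = 0.036). The 1 gene lower in the double mutant than in Δ*cnaB* became 0 to 2. The cause was not tested.

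A count test on recovered reads was not run, and the interaction could not be fitted without a parent library. The salt test pairs the libraries by strain. Without the strain term no *ors* gene was called either, and the calls of AN7896 and AN7897 were lost (limma, adjusted *P* = 0.81 and 0.71). Levels under 1 RPM were not measured, which limits *orsA*, *orsB* and *orsC*.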
